A study of Mus musculus with 12 samples.

Results

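The Slc25a genes encode the mitochondrial solute carriers, and every protein-coding gene of the mouse annotation whose symbol starts with Slc25a was taken as a member. By this rule 47 of the 54193 genes with an annotated transcript in the files were members, and 43 of them were among the 18017 genes that passed the filter on low counts, set at 10 normalized counts as the mean of the 12 libraries. The other 4 members, Slc25a2, Slc25a41, Slc25a48 and Slc25a54, were measured but not tested. The libraries came from the laser-microdissected substantia nigra pars compacta (SNpc) of 12 mice labelled as males of 1 week of age, 3 in each of 4 groups. OF1-En1+/- mice carry a LacZ insertion that disrupts 1 copy of Engrailed-1 (En1), a homeobox gene that midbrain dopaminergic neurons need, on the outbred SwissOF1 (OF1) background, and OF1 WT mice are the wild types of that background. C57-En1+/- mice carry the same allele after repeated backcrossing to C57Bl/6j (C57), and C57 WT mice are the wild types of that strain. Mice are numbered 1 to 3 within a group, and values are given in that order.

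Carriers of this family are small membrane proteins, most of them in the inner mitochondrial membrane, which is otherwise closed to charged metabolites. Each exchanges or imports a narrow set of solutes, such as ADP against ATP, phosphate, aspartate against glutamate, citrate, acylcarnitine, ornithine, coenzyme A or iron, and a few sit elsewhere: Slc25a17 is peroxisomal and Slc25a46 lies in the outer membrane. Dopaminergic neurons of the SNpc fire continuously and are known for a high demand on mitochondrial ATP, which leaves the matrix through the ADP/ATP carriers of this family.

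The sequences shown are those behind the most abundant members and Slc25a42, the member with the smallest p for the average strain difference. Slc25a4 and Slc25a5, the ADP/ATP carriers of heart, muscle and brain and of most other tissues, each have 894 coding bases, and 78.0% of aligned coding bases are identical between them, against 63.4% between Slc25a31 and Slc25a4. Among the first 90 coding bases 24 differ, shown in capitals.
Slc25a4: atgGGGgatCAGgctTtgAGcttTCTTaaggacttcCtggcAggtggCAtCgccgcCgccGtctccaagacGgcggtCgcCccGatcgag
Slc25a5: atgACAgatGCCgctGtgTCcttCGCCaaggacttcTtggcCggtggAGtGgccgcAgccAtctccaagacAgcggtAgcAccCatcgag

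Slc25a3, the phosphate carrier, has a pair of mutually exclusive exons, and their use was measured here. The upstream exon lies at chr10:90958069-90958193 and the downstream exon at chr10:90957784-90957905 (GRCm39, minus strand), with 125 and 122 bases. In other studies of mammals the upstream form is known from heart and skeletal muscle and the downstream form from most tissues. The exons are 65.6% identical over 128 aligned positions, and the bases that differ or have no partner are in capitals.
Slc25a3 upstream exon: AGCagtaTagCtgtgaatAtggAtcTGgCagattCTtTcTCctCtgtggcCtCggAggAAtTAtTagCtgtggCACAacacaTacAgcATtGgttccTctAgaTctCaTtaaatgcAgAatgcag
Slc25a3 downstream exon: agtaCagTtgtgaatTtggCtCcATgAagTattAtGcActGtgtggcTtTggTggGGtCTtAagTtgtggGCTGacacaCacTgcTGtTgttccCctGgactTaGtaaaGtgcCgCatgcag

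Promoters are shown for the 3 most abundant members and for Slc25a42, as the 250 bases before the start of transcription in RefSeq (GRCm38.p6). Capitals mark matches on either strand to CCAAT, GGGCGGGG or TATAAA. The Slc25a4 promoter (chr8:46211063-46211312, minus strand) holds CCAAT at 2 places. The Slc25a3 promoter (chr10:91123968-91124217, minus strand) holds GGGCGGGG at 1 place, and the Slc25a5 promoter (chrX:36795347-36795596, plus strand) holds none of these letters. The Slc25a42 promoter (chr8:70212282-70212531, minus strand) holds 5 copies of CCAAT.
Slc25a4: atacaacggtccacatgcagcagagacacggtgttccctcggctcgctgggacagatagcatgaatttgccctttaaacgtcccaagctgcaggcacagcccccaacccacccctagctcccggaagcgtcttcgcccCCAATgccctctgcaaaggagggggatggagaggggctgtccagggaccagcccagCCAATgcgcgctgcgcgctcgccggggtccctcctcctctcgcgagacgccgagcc
Slc25a5: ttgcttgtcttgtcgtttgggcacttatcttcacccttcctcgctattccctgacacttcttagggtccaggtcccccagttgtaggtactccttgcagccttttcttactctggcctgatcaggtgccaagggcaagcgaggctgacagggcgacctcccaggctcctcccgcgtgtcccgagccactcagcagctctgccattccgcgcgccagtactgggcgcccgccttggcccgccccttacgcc
Slc25a3: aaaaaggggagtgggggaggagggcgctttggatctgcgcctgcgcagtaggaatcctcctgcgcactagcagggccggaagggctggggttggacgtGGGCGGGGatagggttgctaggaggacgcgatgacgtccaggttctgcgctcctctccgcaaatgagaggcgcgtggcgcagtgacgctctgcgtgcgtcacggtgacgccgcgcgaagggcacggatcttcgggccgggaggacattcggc
Slc25a42: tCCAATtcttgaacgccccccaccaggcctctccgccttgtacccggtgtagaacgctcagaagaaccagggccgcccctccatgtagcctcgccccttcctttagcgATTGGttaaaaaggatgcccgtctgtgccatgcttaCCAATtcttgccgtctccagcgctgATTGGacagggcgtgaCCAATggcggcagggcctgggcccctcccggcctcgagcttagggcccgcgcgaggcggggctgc
Of the 36 members with a promoter sequence, 18 held CCAAT (50.0%, against 37.5% of all genes), 11 held GGGCGGGG (30.6%, against 18.0%) and 2 held TATAAA (5.56%, against 14.3%). As many as 5 copies of CCAAT stood in 0.248% of all promoters and in no other member. These matches describe letters in a window of the reference genome, and binding was not measured.

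Several properties of the libraries bear on every value. Estimated reads per library ran between 13538864 and 168741283, and the 3 C57 WT libraries were the deepest with at least 61433970. En1 itself was at 0 in 4 of 6 En1+/- libraries and above 0 in 6 of 6 WT libraries: it had 0.0, 690.6 and 0.0 normalized counts in OF1-En1+/- mice against 9.4, 15.2 and 1.1 in OF1 WT mice, and 0.0, 9.4 and 0.0 in C57-En1+/- mice against 0.87, 1071 and 11.7 in C57 WT mice. The highest En1 values stood in the 2 libraries rich in dopaminergic transcripts. Its WT values of 0.87 and 1.1 lie near 0, where detection also depends on sequencing depth. Th, the enzyme that makes the dopamine precursor, had 85970 normalized counts in OF1-En1+/- mouse 2 and 121800 in C57 WT mouse 2. It had between 8.8 and 1447 in the other 10. Slc6a3, another dopaminergic marker, had 205400 and 350600 in these 2 libraries and between 4.2 and 3230 in the other 10. These 2 defining markers of the labelled tissue were thus near absent from, or far lower in, most libraries. The 13 listed dopaminergic markers summed to 398100 and 633400 in the 2 rich libraries, 43570 in C57-En1+/- mouse 2 and 2015 to 8286 elsewhere. C57-En1+/- mouse 2, labelled male, had 1330 normalized counts of Xist and none of the Y-linked Ddx3y. OF1 WT mouse 2 stood apart within the family: it was the lowest of 12 for 7 of the 26 members with a mean count of at least 500, and the Spearman correlation of its deviations with the GC content of their transcripts was 0.68, against -0.36 to 0.13 in the other libraries. In bulk tissue fewer cells of a type and less RNA per cell cannot be told apart.

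The family made up 4697 ± 546 TPM (SD, n = 12) in all, and 3 carriers held most of it. Levels of different genes are compared as TPM, a unit that takes transcript length and sequencing depth into account. Slc25a4, Slc25a5 and Slc25a3 together held 71.2% of the family's TPM, between 64.4% and 75.8% by library. Slc25a4 exceeded Slc25a5, Slc25a5 exceeded Slc25a3 and Slc25a3 exceeded Slc25a11 in 12 of 12 libraries. Besides these 3 members above 500 TPM, 4 members lay between 100 and 500 TPM, 20 between 10 and 100, 13 between 1 and 10, and 7 below 1.

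**Figure D1:**
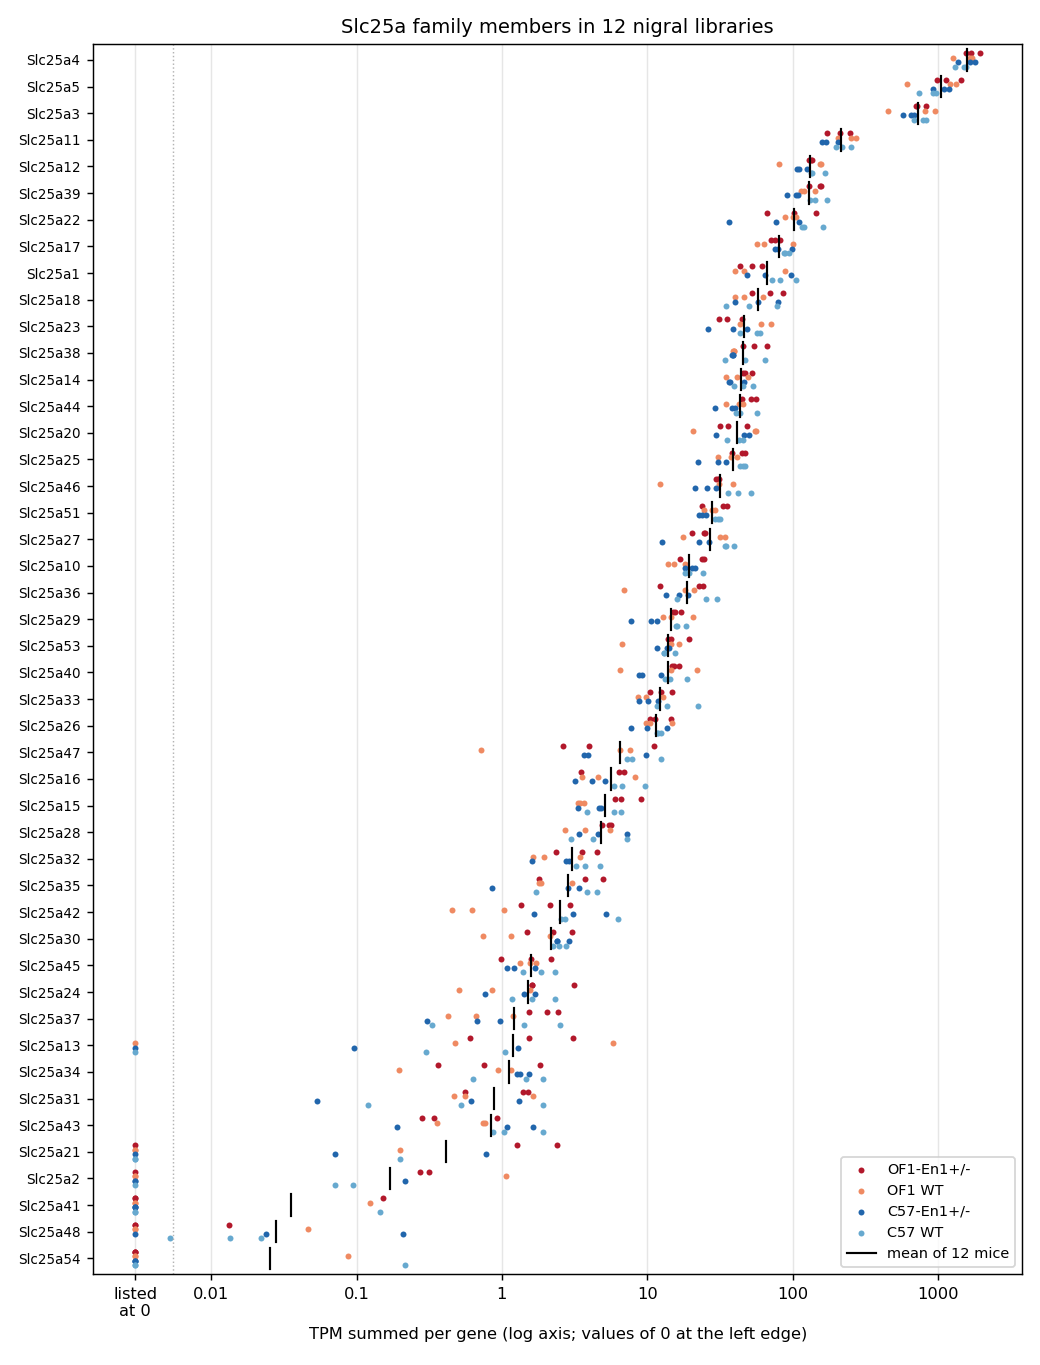
Summed TPM of 46 Slc25a members (rows, by mean level) on a log axis, with 1 point per mouse in the colour of its group, the mean of 12 mice as a black bar and values of 0 at the left edge. Slc25a4, Slc25a5 and Slc25a3 lie to the right of all others, and the spread between mice widens on this axis for the members below 1 TPM.

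The ADP/ATP carriers were the most abundant role, with 2631 ± 429 TPM (SD, n = 12) or 55.8% of the family. Slc25a4 had 1950, 1546 and 1675 TPM in OF1-En1+/- mice, 1703, 1277 and 1667 in OF1 WT mice, 1809, 1663 and 1370 in C57-En1+/- mice and 1316, 1550 and 1501 in C57 WT mice. Slc25a5 had 1440, 987.6 and 1128 TPM in OF1-En1+/- mice, 1320, 615.5 and 1210 in OF1 WT mice, 1188, 1093 and 920.3 in C57-En1+/- mice and 736.6, 916.4 and 974.9 in C57 WT mice. The groups overlapped for both genes, and the lowest values of each were those of OF1 WT mouse 2. Slc25a31, a carrier best known from testis, averaged 0.888 TPM. In normalized counts Slc25a4 differed by 0.41 ± 0.21 and Slc25a5 by 0.54 ± 0.28 on the log2 scale (SE) in C57-En1+/- over C57 WT mice, and neither passed the test (edgeR adjusted p = 0.605 and 0.612). In OF1-En1+/- over OF1 WT mice the differences were 0.09 ± 0.21 and 0.11 ± 0.28, and limma voom gave -0.07 for Slc25a5. The Slc25a4 share of ADP/ATP carrier TPM stayed between 56.3% and 67.5%, and its highest value was again that of OF1 WT mouse 2. Processed copies of Slc25a5 took at most 0.196% of the reads of gene and copies together, although 11 copies are annotated.

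Slc25a3, which imports the phosphate for ATP synthesis, followed them in abundance. It had 716.2, 705.7 and 830.8 TPM in OF1-En1+/- mice, 956.0, 455.5 and 807.4 in OF1 WT mice, 683.3, 571.6 and 655.0 in C57-En1+/- mice and 684.8, 820.6 and 793.7 in C57 WT mice. The C57-En1+/- mice all lay below the C57 WT mice in TPM, with 683.3 against 684.8 at the nearest. Other members, such as Slc25a12 and Slc25a39, were separated in TPM in the same direction. The share of all genes so separated was not computed. In normalized counts, which are scaled over the genes of a library, the groups overlapped for Slc25a3. They differed by -0.04 ± 0.23 on the log2 scale (SE, edgeR adjusted p = 0.979), with the sign reversed by DESeq2 (0.025) and by limma voom (0.06). Transcripts with the upstream exon made up 15.8%, 15.95% and 7.13% of Slc25a3 TPM with either exon in OF1-En1+/- mice, against 12.45%, 18.5% and 8.74% in OF1 WT mice. They made up 11.1%, 19.3% and 13.6% in C57-En1+/- mice, against 5.13%, 4.59% and 9.74% in C57 WT mice. The downstream exon thus dominated in every library. In the C57 strain, but not in OF1, the En1+/- and WT mice did not overlap, and a difference between the strains in this was not tested. The upstream share averaged 14.6 ± 4.23% in C57-En1+/- mice and 6.49 ± 2.83% in C57 WT mice (SD). Averaged over both strains the difference of En1+/- over WT was 3.94 percentage points, which did not pass an exact two-sided permutation test within strains (p = 0.185, adjusted p = 0.667 over 10 such tests, with 0.005 the smallest p the design allows). The upstream exon rests on 1 transcript in the files and the downstream exon on 2, and the shares are estimates by the quantifier from short reads.

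The next most abundant members serve the malate-aspartate shuttle, which carries reducing equivalents into the matrix. Slc25a11, the oxoglutarate/malate carrier, had 210.5, 246.8 and 171.4 TPM in OF1-En1+/- mice, 273.4, 205.9 and 252.1 in OF1 WT mice, 205.9, 170.7 and 159.0 in C57-En1+/- mice and 197.1, 218.6 and 251.9 in C57 WT mice. Slc25a12, the aspartate/glutamate carrier of brain and muscle, had 133.3, 129.0 and 135.2 TPM in OF1-En1+/- mice, 155.0, 80.1 and 157.1 in OF1 WT mice, 106.4, 110.3 and 125.4 in C57-En1+/- mice and 135.8, 133.6 and 165.6 in C57 WT mice. Neither passed the test in any comparison. In normalized counts Slc25a11 had 7811, 8443 and 6444 in OF1-En1+/- mice against 9538, 8531 and 9669 in OF1 WT mice, without overlap, a difference of -0.29 ± 0.21 on the log2 scale (SE, adjusted p = 0.706). Slc25a13, the other aspartate/glutamate carrier, known from liver, was sparse and erratic, and 3 libraries had none. Its normalized counts were 194, 4.7 and 49.5 in OF1-En1+/- mice, 260, 0.0 and 36.6 in OF1 WT mice, 12.8, 0.0 and 0.86 in C57-En1+/- mice and 2.2, 0.0 and 15.0 in C57 WT mice. Its average difference of OF1 over C57 mice was 4.15 ± 1.51 on the log2 scale (SE, edgeR unadjusted p = 0.018, adjusted p = 0.351), and the values of the strains overlapped. DESeq2 gave an adjusted p of 0.0531 and limma voom 0.591 for this comparison. In OF1 WT over C57 WT mice the difference was 4.03 ± 2.08 (edgeR adjusted p = 0.648), with 1.63 without OF1 WT mouse 1 and 6.27 without C57 WT mouse 3.

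Slc25a22 and Slc25a18 import glutamate with a proton, and in brain Slc25a22 is known mainly from neurons and Slc25a18 from astrocytes. Slc25a22 had 66.1, 144.2 and 102.1 TPM in OF1-En1+/- mice, 88.1, 100.2 and 105.6 in OF1 WT mice, 76.8, 36.6 and 111.2 in C57-En1+/- mice and 116.6, 161.4 and 119.1 in C57 WT mice. As for Slc25a3, all 3 C57-En1+/- mice lay below all 3 C57 WT mice in TPM, without a share of all genes to compare. In normalized counts the groups overlapped and the difference was -0.61 ± 0.33 (log2, SE, edgeR adjusted p = 0.621). The Slc25a22 share of the pair was 43.6%, 67.4% and 66.0% in OF1-En1+/- mice, 65.4%, 61.4% and 72.6% in OF1 WT mice, 57.03%, 31.6% and 73.6% in C57-En1+/- mice and 59.9%, 76.2% and 77.4% in C57 WT mice. The lowest shares were thus those of C57-En1+/- mouse 2 and OF1-En1+/- mouse 1. The same 2 libraries had the highest summed normalized counts of the 8 oligodendrocyte markers, 196900 in C57-En1+/- mouse 2 and 113000 in OF1-En1+/- mouse 1, and of the 8 astrocyte markers, 63160 and 63040, and the part of these cells in the shares was not tested. Over both strains the share differed by -12.3 percentage points between En1+/- and WT mice (exact two-sided permutation p = 0.135, adjusted p = 0.667), and by -6.66 without C57-En1+/- mouse 2.

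Among the carriers of other metabolites Slc25a39, which imports glutathione, led with 129.2, 156.1 and 153.5 TPM in OF1-En1+/- mice, 119.0, 142.8 and 114.7 in OF1 WT mice, 90.9, 104.7 and 108.3 in C57-En1+/- mice and 143.5, 171.1 and 131.0 in C57 WT mice. Its normalized counts in OF1-En1+/- mice, 4667, 5141 and 5630, all exceeded those in C57-En1+/- mice, 3438, 4478 and 3887, by 0.39 ± 0.19 on the log2 scale (SE, adjusted p = 0.665). Slc25a17, the peroxisomal cofactor carrier, had 75.1, 81.6 and 71.2 TPM in OF1-En1+/- mice, 63.3, 56.5 and 100.7 in OF1 WT mice, 79.6, 75.05 and 99.1 in C57-En1+/- mice and 93.9, 87.4 and 87.9 in C57 WT mice. In normalized counts it had 2796, 2844 and 2712 in OF1-En1+/- mice against 3291, 3466 and 3767 in C57-En1+/- mice, without overlap, a difference of -0.33 ± 0.21 (log2, SE, adjusted p = 0.766). Slc25a1, which exports citrate for lipid synthesis, had 43.2, 62.0 and 52.6 TPM in OF1-En1+/- mice, 40.1, 88.5 and 46.3 in OF1 WT mice, 48.7, 97.3 and 64.8 in C57-En1+/- mice and 105.0, 82.2 and 72.3 in C57 WT mice. The high values of Slc25a1 in OF1 WT mouse 2 and C57-En1+/- mouse 2 were also seen in normalized counts, 3599 and 4251, against 1371 to 3045 in the other 10 libraries. Its average difference of OF1 over C57 mice, -0.48 ± 0.26 (log2, SE, adjusted p = 0.706), was -0.26 without C57-En1+/- mouse 2 and -0.76 without OF1 WT mouse 2.

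The order of the most abundant members was firm at the top and loose below. Slc25a12 exceeded Slc25a39 in 7 of 12 libraries, so that the order within this pair was not distinguishable beyond the spread. The remaining roles were lower. Nucleotide and cofactor carriers, 9 members, summed to 231 ± 31.7 TPM (SD, n = 12), led by Slc25a17 and ending with Slc25a42 at 2.50 TPM. The 4 carriers of other amino acids and glutathione summed to 234 ± 41.5 TPM, with Slc25a40, a relative of Slc25a39, lowest at 13.9 TPM. The 6 di- and tricarboxylate carriers summed to 304 ± 34.2 TPM, from Slc25a11 down to the oxodicarboxylate carrier Slc25a21 at 0.410 TPM.

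The calcium-regulated ATP-Mg/phosphate carriers, which load the matrix with adenine nucleotides, summed to 86.8 ± 17.7 TPM, with Slc25a23 highest at 46.6 TPM and Slc25a41 lowest at 0.0352 TPM. The uncoupling protein-like carriers Slc25a14, Slc25a27 and Slc25a30 summed to 73.3 ± 10.7 TPM, with Slc25a14 at 44.2 TPM and Slc25a30 at 2.16 TPM. In the group of acylcarnitine, ornithine and basic amino acid carriers, 69.4 ± 14.5 TPM in all, Slc25a20, which brings acylcarnitines in for oxidation, had 41.4 TPM and Slc25a48 had 0.0277 TPM. Slc25a46 led the outer membrane and orphan carriers at 31.7 TPM, and Slc25a54, listed at 0 in 10 of 12 libraries, was the lowest of all 47 members. The mitoferrins, which import iron for heme and iron-sulfur clusters, were low, with 4.81 TPM of the broadly expressed Slc25a28 and 1.21 TPM of Slc25a37, known from red cell precursors.

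No member passed an edgeR adjusted p of 0.05 in any of the 7 comparisons. In OF1-En1+/- over OF1 WT mice 0 of 43 members were called, as were 0.0% of all genes tested, and 4 members had an unadjusted p under 0.05 (9.3%, against 9.18% of all genes). In C57-En1+/- over C57 WT mice 0 members and 0.0% of all genes were called, and 1 member had an unadjusted p under 0.05 (8.57% of all genes). In OF1 over C57 mice 0 members were called among WT (1.03% of all genes) and 0 among En1+/- mice (0.927%), with 1 and 3 members under an unadjusted p of 0.05 (8.63% and 8.0% of all genes). The average strain difference, with 2.0% of all genes called, had 0 members called and 2 under an unadjusted p of 0.05 (8.68% of all genes). The average difference of En1+/- over WT mice and the strain-by-genotype interaction, each with 0.0% of all genes called, had 0 members called and 3 under an unadjusted p of 0.05 apiece (11.4% and 7.07% of all genes). DESeq2 and limma voom each called 1 member, Slc25a42, in 2 comparisons, OF1 over C57 among WT mice and on average, and none elsewhere. For OF1 over C57 DESeq2 called 2.56% of all genes among WT mice, 2.49% among En1+/- mice and 3.67% on average, and limma voom 1.28%, 0.777% and 2.38%. For En1+/- over WT DESeq2 called 1.26% in OF1, 0.416% in C57 and 1.4% on average, and 0.236% for the interaction, and limma voom 0.0% in each.

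**Figure D2:**
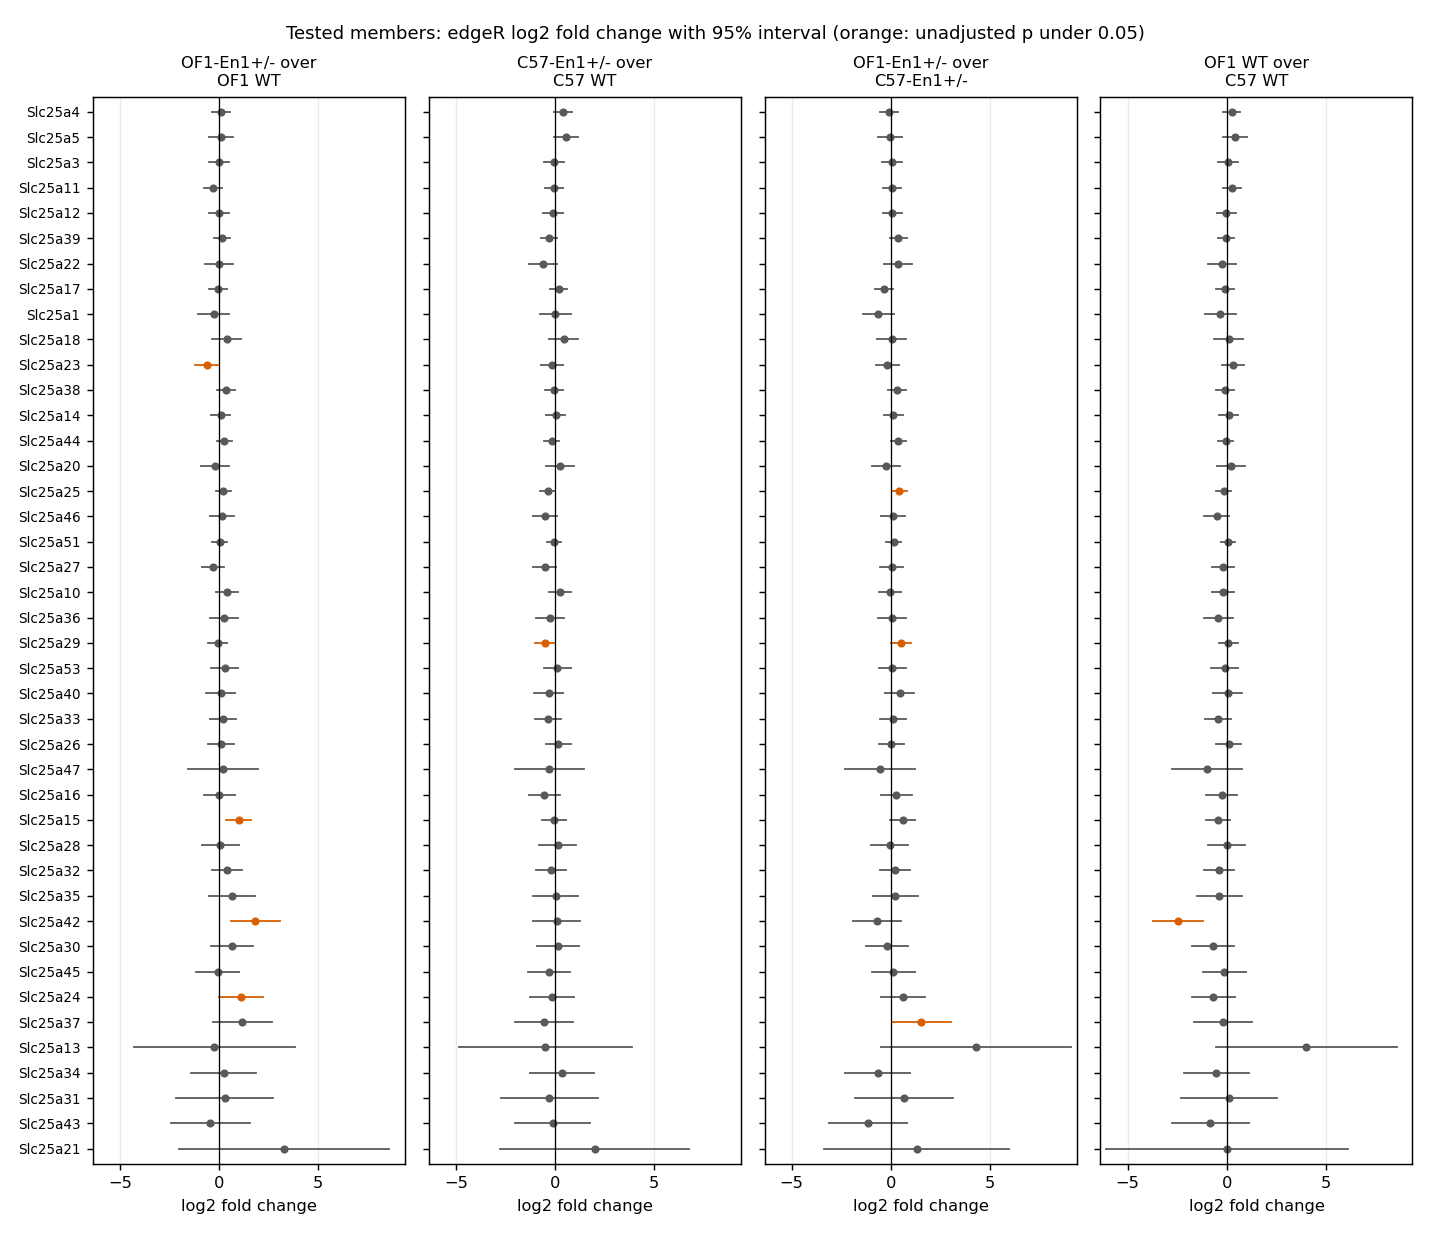
edgeR log2 fold changes of 42 tested members (rows, by mean TPM) with 95% intervals for 4 comparisons, in orange where the unadjusted p was under 0.05. The points of abundant members stay near 0, Slc25a42 lies at -2.44 in OF1 WT over C57 WT mice, and the intervals widen for the sparse members at the bottom.

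The fold changes of the family were small. The median over the 43 tested members was 0.11 on the log2 scale in OF1-En1+/- over OF1 WT mice (all genes -0.02), -0.06 in C57-En1+/- over C57 WT mice (all genes -0.05), 0.08 in OF1-En1+/- over C57-En1+/- mice (all genes -0.02) and -0.09 in OF1 WT over C57 WT mice (all genes -0.05). An absolute log2 fold change above 1 was fitted for 4 members in OF1-En1+/- over OF1 WT mice, against 17.3% of all genes, and for 1 in C57-En1+/- over C57 WT mice, against 14.1%. Members varied about as much within groups as other genes of like abundance: over the 26 members with a mean count of at least 500 the median SD within groups was 0.311 on the log2 scale, against 0.331 over 8281 such genes.

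Slc25a42, which imports coenzyme A (chr8:70636988-70664966, GRCm39, minus strand), had the smallest p of the family for strain. Its normalized counts were 104, 205 and 164 in OF1-En1+/- mice, 23.6, 79.5 and 27.75 in OF1 WT mice, 244.5, 144 and 376.5 in C57-En1+/- mice and 349, 165 and 206 in C57 WT mice. The OF1 WT mice lay below all 9 other mice. OF1 WT over C57 WT mice differed by -2.44 ± 0.58 on the log2 scale (SE, 95% interval -3.70 to -1.18, edgeR adjusted p = 0.0884). DESeq2 gave an adjusted p of 0.00301 and limma voom 0.0322 for the same comparison. Without OF1 WT mouse 2, whose count was the highest of its group, edgeR called it at -3.22 (adjusted p = 0.0309), and over all alternatives the adjusted p ran from 0.00301 to 0.386. Among En1+/- mice, where the strains overlapped, the difference was -0.70 ± 0.55 (adjusted p = 0.848), and the average strain difference was -1.57 ± 0.40 (adjusted p = 0.0806 by edgeR, 0.007 by DESeq2, 0.0189 by limma voom, and 0.0175 by edgeR without OF1 WT mouse 2).

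Few reads stood behind Slc25a42 in the OF1 WT mice. Its coding transcript Slc25a42-201 had 55.4, 84.7 and 136 estimated reads in OF1-En1+/- mice against 0.0, 56.4 and 15.9 in OF1 WT mice, and 143, 128 and 393 in C57-En1+/- mice against 668, 270 and 935 in C57 WT mice. A transcript with a retained intron, Slc25a42-204, had 1.17, 3.47 and 6.48 reads in OF1-En1+/- mice and 9.13, 11.1 and 7.93 in OF1 WT mice. In OF1 WT mouse 1 none of the count thus came from the coding form. The annotated span of the gene overlaps that of Tmem161a on the opposite strand by 70 bases, and the library kit does not keep strand. In OF1-En1+/- over OF1 WT mice, where the groups did not overlap, Slc25a42 differed by 1.84 ± 0.57 (log2, SE, unadjusted p = 0.0074, edgeR adjusted p = 0.453). The differences between OF1 WT and the groups on either side of it share the 3 OF1 WT libraries, and in C57-En1+/- over C57 WT mice the difference was 0.09 ± 0.54.

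**Figure D3:**
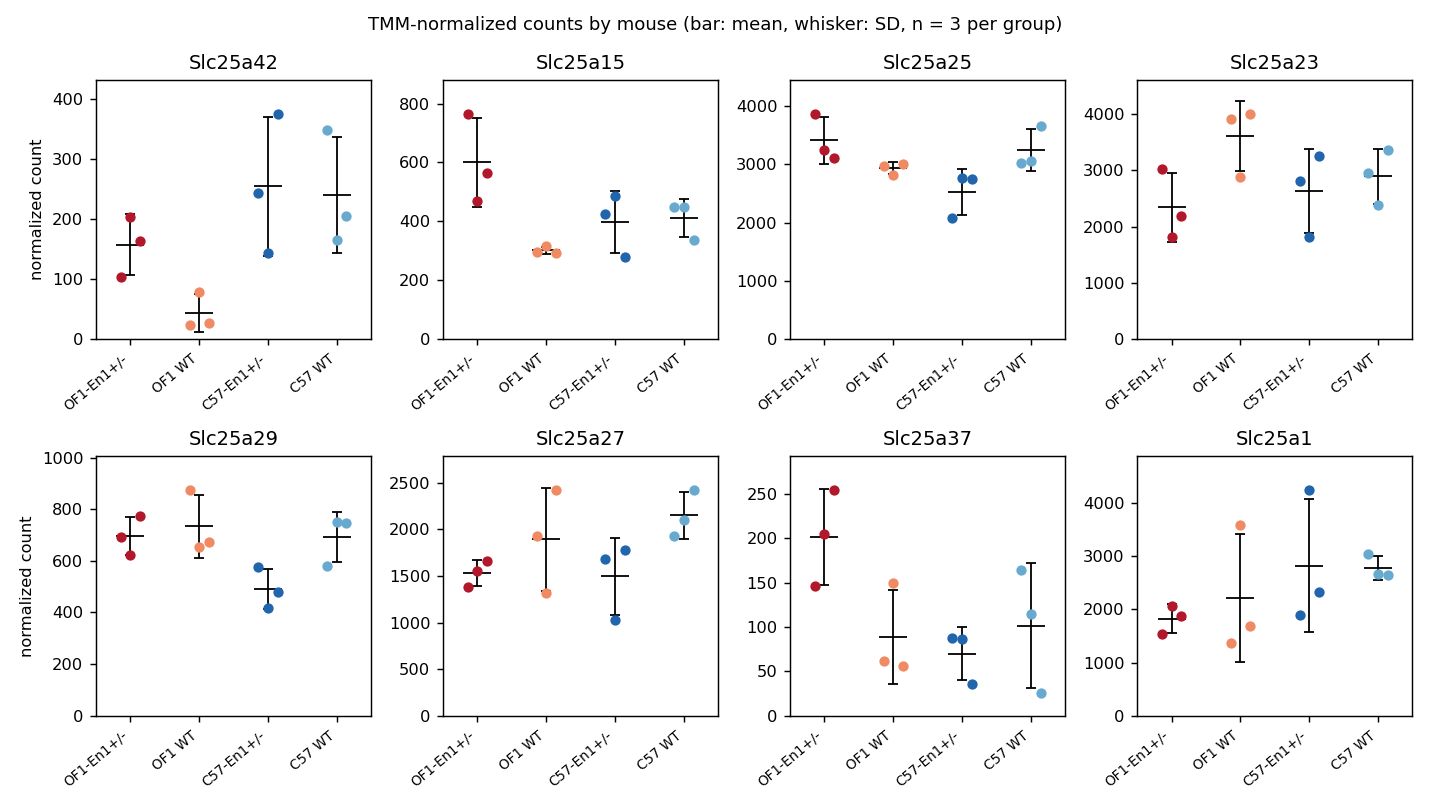
TMM-normalized counts (library-size scaled counts, linear axes from 0) of 8 members, with 1 point per mouse, the group mean as a bar and the SD as whiskers (n = 3 per group). The 3 OF1 WT mice are the lowest points for Slc25a42, at 23.6 to 79.5, and for Slc25a25 the OF1-En1+/- points lie above those of OF1 WT while the C57-En1+/- points lie below those of C57 WT.

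Slc25a15, the ornithine carrier, had the smallest p of the family in OF1-En1+/- over OF1 WT mice. It had 766, 470 and 564 normalized counts in OF1-En1+/- mice against 297, 316 and 294 in OF1 WT mice, and 425, 487 and 280 in C57-En1+/- mice against 447, 448 and 336 in C57 WT mice. In OF1 the groups did not overlap. The difference was 0.99 ± 0.29 (log2, SE, 95% interval 0.36 to 1.61, unadjusted p = 0.00488), with an edgeR adjusted p of 0.453 and one of 0.081 by DESeq2. The interaction, the OF1 difference minus the C57 difference, was 1.03 ± 0.40 (unadjusted p = 0.0244, adjusted p = 0.691).

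Of the tested ATP-Mg/phosphate carriers, Slc25a23 and Slc25a24 had an unadjusted p under 0.05 in OF1, with differences of opposite sign. Slc25a25 had one in the interaction but not in OF1 (edgeR unadjusted p = 0.23). Such p values were about as frequent among members as among all genes, 9.3% against 9.18% in OF1 and 6.98% against 7.07% for the interaction. Slc25a23 had 3017, 1818 and 2184 normalized counts in OF1-En1+/- mice against 3912, 2887 and 4006 in OF1 WT mice, a difference of -0.62 ± 0.26 (log2, SE, unadjusted p = 0.0347, adjusted p = 0.527), and the groups overlapped. Slc25a24 had 136, 126 and 270 in OF1-En1+/- mice against 125, 47.9 and 73.3 in OF1 WT mice, a difference of 1.12 ± 0.51 (unadjusted p = 0.0495, adjusted p = 0.542), and the groups were separated only by 125.6 against 125.1 counts. Neither passed the test. Slc25a25 had 3868, 3246 and 3112 normalized counts in OF1-En1+/- mice against 2975, 2814 and 3006 in OF1 WT mice, and 2077, 2771 and 2743 in C57-En1+/- mice against 3014, 3058 and 3650 in C57 WT mice. All OF1-En1+/- values thus exceeded the OF1 WT values and all C57-En1+/- values lay under the C57 WT values, a pattern seen in 1 of 43 members and in 0.488% of all genes tested. The differences were 0.22 ± 0.17 in OF1 and -0.36 ± 0.17 in C57 (log2, SE), with -0.21 in C57 without C57-En1+/- mouse 1, and their interaction was 0.57 ± 0.24 (unadjusted p = 0.0359, adjusted p = 0.691). Between OF1-En1+/- and C57-En1+/- mice Slc25a25 differed by 0.43 ± 0.17 (unadjusted p = 0.0282, adjusted p = 0.531).

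In C57-En1+/- over C57 WT mice the smallest p values were those of Slc25a29, Slc25a25 and Slc25a27. Slc25a29, a carrier of basic amino acids, had 694, 623 and 773 normalized counts in OF1-En1+/- mice, 875, 655 and 674 in OF1 WT mice, 575.2, 419 and 478 in C57-En1+/- mice and 579, 752 and 748 in C57 WT mice. The C57-En1+/- mice lay below the C57 WT mice without overlap, a difference of -0.50 ± 0.23 (log2, SE, unadjusted p = 0.048, adjusted p = 0.579), and OF1-En1+/- exceeded C57-En1+/- mice by 0.51 ± 0.23 (unadjusted p = 0.0456, adjusted p = 0.607). Slc25a27, an uncoupling protein-like carrier enriched in brain, had 1387, 1551 and 1665 in OF1-En1+/- mice, 1935, 1321 and 2423 in OF1 WT mice, 1687, 1023 and 1781 in C57-En1+/- mice and 1930, 2102 and 2425 in C57 WT mice. Its difference was -0.52 ± 0.26 in C57-En1+/- over C57 WT mice and -0.41 ± 0.18 on average over both strains (unadjusted p = 0.0646 and 0.0424, adjusted p = 0.601 and 0.421). C57-En1+/- mouse 2, the library with Xist, held the lowest value of both genes, and without it the C57 differences were -0.37 for Slc25a29 and -0.29 for Slc25a27.

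Slc25a37 and Slc25a46 complete the named members. Slc25a37, the mitoferrin of red cell precursors, had 146, 205 and 254 normalized counts in OF1-En1+/- mice, 61.4, 150 and 55.5 in OF1 WT mice, 87.9, 86.8 and 35.2 in C57-En1+/- mice and 165, 114 and 25.5 in C57 WT mice. OF1-En1+/- exceeded C57-En1+/- mice without overlap, by 1.53 ± 0.69 (log2, SE, unadjusted p = 0.0451, adjusted p = 0.606). The 6 erythroid markers summed to 9859 to 29840 normalized counts in OF1-En1+/- mice and 22380 to 46090 in C57-En1+/- mice, and overlapped between these groups. Slc25a46, which takes part in mitochondrial dynamics, had 3271, 3141 and 3436 in OF1-En1+/- mice, 4035, 1491 and 3466 in OF1 WT mice, 3058, 2778 and 3225 in C57-En1+/- mice and 4580, 4179 and 4032 in C57 WT mice. Its difference of OF1 WT over C57 WT mice, -0.51 ± 0.28 (log2, SE, adjusted p = 0.677), was -0.19 without OF1 WT mouse 2 and -0.78 without OF1 WT mouse 1.

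Members whose groups did not overlap are given as counts of the 43 tested, beside the share of all genes so separated. The counts were not tested against these shares. In OF1-En1+/- over OF1 WT mice 4 members lay higher (7.68% of all genes) and 1, Slc25a11, lower (8.04%). In C57-En1+/- over C57 WT mice 0 lay higher (6.2% of all genes) and 4 lower (8.08%), the fourth beside those already named being Slc25a46. In OF1-En1+/- over C57-En1+/- mice 6 lay higher (6.49%), with Slc25a40 and the branched-chain amino acid carrier Slc25a44 beside Slc25a25, Slc25a29, Slc25a37 and Slc25a39, and 1, Slc25a17, lower (6.75%). In OF1 WT over C57 WT mice 0 lay higher (6.21%) and 3 lower (8.57%), namely Slc25a15, Slc25a25 and Slc25a42. Pooled over genotypes or over strains 0 members were separated, against 2.39% and 0.771% of all genes.

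Summed markers of cell types were compared between the same groups, and only the lists whose groups did not overlap are named. Most lists overlapped in each comparison. How many lists would be separated by chance was not computed, so the separated ones are given as a description only. Between OF1-En1+/- and OF1 WT mice the 6 subthalamic and posterior hypothalamic markers summed to 2771 to 11840 against 26070 to 89560 normalized counts, the 8 oligodendrocyte markers to 54500 to 113000 against 20470 to 42240, and the 6 proliferation markers to 1341 to 1986 against 456 to 1000. Between C57-En1+/- and C57 WT mice the 6 mural and fibroblast markers summed to 2497 to 4568 against 1543 to 2445 and the 6 erythroid markers to 22380 to 46090 against 12110 to 14890. Between OF1 WT and C57 WT mice the 6 proliferation markers summed to 456 to 1000 against 1130 to 2283, and between OF1-En1+/- and C57-En1+/- mice no marker list was separated. No marker on these lists was at 0 in all libraries. Their part in the differences of Slc25a42, Slc25a15, Slc25a25 and the other members was not tested.

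The shares within related pairs were measured as a further readout. Slc25a28 made up 76.2%, 72.7% and 69.9% of mitoferrin TPM in OF1-En1+/- mice, 89.7%, 82.4% and 80.4% in OF1 WT mice, 88.2%, 83.5% and 93.8% in C57-En1+/- mice and 74.3%, 75.03% and 90.15% in C57 WT mice. It led Slc25a37 in every library, and all 3 OF1-En1+/- mice lay below the OF1 WT mice. In C57 the mean share went the other way, with 88.5% in En1+/- and 79.8% in WT mice, and these groups overlapped. Over both strains the difference of En1+/- over WT was -1.3 percentage points (exact two-sided permutation p = 0.77, adjusted p = 0.911). Over both genotypes the OF1 minus C57 difference was -5.60 percentage points (exact two-sided permutation p = 0.235, adjusted p = 0.667), and -3.02 without C57 WT mouse 3. The family total was 5035 ± 360 TPM in OF1-En1+/- mice and 4671 ± 1017 in OF1 WT mice, and 4478 ± 350 in C57-En1+/- mice and 4606 ± 310 in C57 WT mice (SD). The strain difference of 311 TPM did not pass (exact two-sided permutation p = 0.385, adjusted p = 0.667), and it rested on single libraries. Leaving out each in turn gave between 129 TPM, without OF1 WT mouse 1, and 602 TPM, without OF1 WT mouse 2, where the unadjusted exact permutation p was 0.015.

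**Figure D4:**
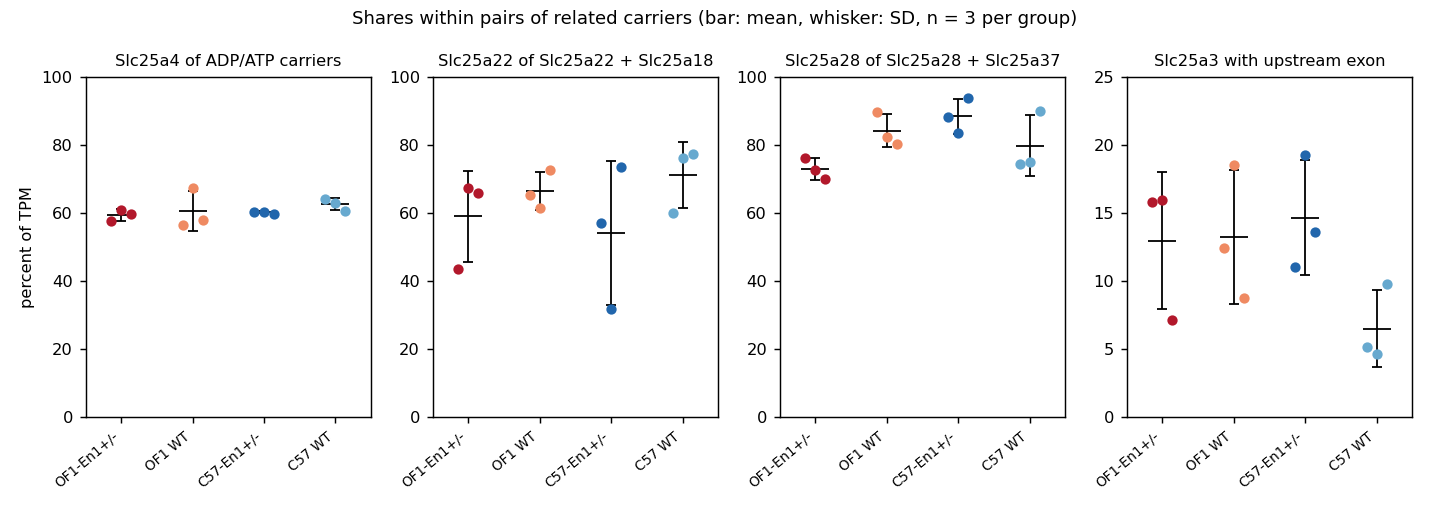
Share of TPM (percent) of Slc25a4 among ADP/ATP carriers, of Slc25a22 among glutamate carriers, of Slc25a28 among mitoferrins and of Slc25a3 transcripts with the upstream exon, with 1 point per mouse, group mean and SD (n = 3 per group). The axis ends at 25% for the Slc25a3 exon, where C57 WT mice sit at 4.59% to 9.74% and C57-En1+/- mice at 11.1% to 19.3%.

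Genes that work beside the family gave no calls either. Of the TIM22 pathway, which inserts carriers into the inner membrane, 13 of 13 listed genes were tested and 0 called in any comparison by edgeR or DESeq2. In C57-En1+/- over C57 WT mice 8 of them lay higher and 5 lower, with a median of 0.36 on the log2 scale (all genes -0.05), and 5 had an unadjusted p under 0.05 (8.57% of all genes). The smallest was that of Timm10, a chaperone of the space between the membranes, with 0.64 ± 0.22 (SE, adjusted p = 0.55), and in OF1-En1+/- over OF1 WT mice 5 lay higher and 8 lower with a median of -0.09. The 4 cytosolic and matrix enzymes of the malate-aspartate shuttle had positive fold changes in C57-En1+/- over C57 WT (4 of 4, median 0.30) and negative ones in OF1-En1+/- over OF1 WT (4 of 4, median -0.16), with 0 called and none under an unadjusted p of 0.05. All 5 porins and pyruvate carrier subunits lay higher in C57-En1+/- over C57 WT mice (median 0.23, all genes -0.05). They were led by Mpc1, a pyruvate carrier subunit, at 0.70 ± 0.31 (edgeR adjusted p = 0.57). In OF1-En1+/- over OF1 WT mice 4 lay higher and 1 lower (median 0.07), and 0 were called. In OF1 WT over C57 WT mice all 5 of these genes (median 0.24) and all 4 shuttle enzymes (median 0.33) also lay higher. The comparisons within C57 and among WT mice share the C57 WT libraries. Of the 5 family relatives with other symbols, the uncoupling proteins and Mtch genes, 4 were tested and 0 called, and Mtch2 was the most abundant with 265 TPM.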

How the data were processed

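Total RNA from laser-microdissected tissue was made into cDNA libraries with SMART-Seq v4 and Nextera XT, which keep no strand, and sequenced as read pairs. The authors quantified transcripts of a GENCODE mouse annotation (GRCm39) with Salmon, and deposited estimated counts and TPM per transcript for each mouse; counts were not normalized. Here both were summed per gene through GENCODE for the same build, which matched 139555 of 140790 transcripts, and estimated counts were rounded. The 18017 genes with a mean TMM-normalized count of at least 10 were fitted in edgeR 4.0.16 (quasi-likelihood, R 4.3.3) with 1 mean per group over all 12 libraries and Benjamini-Hochberg adjustment over all genes. DESeq2 1.42.0, limma voom (3.58.1) with quality weights, other scalings, filters and left-out libraries were alternatives. The fit was tested on simulated data. Shares were compared by exact permutation within strata. Nothing states that the mice came from separate litters, so p-values measure the spread between these samples.

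The members, roles and lists were chosen with earlier results of these data known. Values per mouse are given for the 10 members highest in TPM (1 of them is not reported here), any member called by edgeR or DESeq2, and the 3 with the smallest p per comparison; Slc25a24 was added as it had an unadjusted p under 0.05. Promoters came from RefSeq and matched 36 of 47 members.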

Additional observations from a re-analysis of the deposited data

Results flagged for a closer look

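Slc25a25 differed between the strains in the direction of its En1+/- over WT difference. All 3 OF1-En1+/- mice lay above all 3 OF1 WT mice and all 3 C57-En1+/- mice lay below all 3 C57 WT mice, which flagged it. The interaction was 0.57 on the log2 scale and did not pass the edgeR test (adjusted p = 0.691, and 0.507 to 1.0 over the alternatives).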

How the results depend on the processing

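The count of members called was 0 by edgeR in all 7 comparisons and stayed 0 with other size factors, no count filter, length offsets, without genes of the mitochondrial genome, on protein-coding genes only, and without OF1-En1+/- mouse 2 and C57 WT mouse 2 together. For OF1 over C57 among WT mice it was 1 by DESeq2, 1 by limma voom, and between 0 and 1 when each library was left out in turn; for the average strain difference it was likewise 1 by DESeq2, 1 by limma voom, and between 0 and 1. In each case the member was Slc25a42 and the library left out was OF1 WT mouse 2. Among the 3 members with the smallest p in each comparison, whose fold changes were refitted under every alternative, none changed sign. Outside these, differences near 0 did change sign between tools, such as Slc25a3 in C57-En1+/- over C57 WT mice (0.025 by DESeq2, 0.06 by limma voom) and Slc25a5 in OF1-En1+/- over OF1 WT mice (-0.07 by limma voom). With 3 mice per group and 13538864 reads in the shallowest library, the tested members below 1 TPM had wide intervals, and 4 members were too low to be tested. The shares and the family total without single libraries were computed after the data were seen. No paired analysis was possible because the labels give no number shared between groups.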

Other observations

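The 4 members Slc25a5, Slc25a14, Slc25a43 and Slc25a53 lie on the X chromosome. In C57-En1+/- mouse 2, the library with Xist, they had 33510, 1535, 47.0 and 902 normalized counts. The other 2 mice of its group had 23140 to 32570, 1390 to 1598, 4.79 to 25.7 and 636 to 693. In other groups Slc25a5 reached 35860 in an OF1-En1+/- mouse and Slc25a14 2010 in an OF1 WT mouse, above the library with Xist. Slc25a43 reached 40.9 in a C57 WT mouse and Slc25a53 861.5 in an OF1 WT mouse, below it. An effect of the X chromosome on these members was not tested. Genes of the mitochondrial genome took 4.94%, 5.5% and 3.85% of reads in C57-En1+/- mice and 2.33%, 3.03% and 2.47% in C57 WT mice, against 3.53%, 2.58% and 2.87% in OF1-En1+/- mice and 3.01%, 3.09% and 2.61% in OF1 WT mice. The annotated spans of Slc25a29 and Slc25a47 overlap by 230 bases on opposite strands. That of Slc25a53 shares 5502 bases with that of Zcchc18, which had 35060 normalized counts on average. Slc25a18, which enters the Slc25a22 share, overlaps Atp6v1e1 on the opposite strand by 9296 bases. Atp6v1e1 had 17560 normalized counts on average. Slc25a5 overlaps Steep1 on the opposite strand by 3240 bases, and Steep1 had 1410. These are overlaps of annotated gene spans, introns included, and reads shared between the genes were not counted.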
